A study of Caenorhabditis elegans with 2 samples.

Results

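The genes described here are the nuclear tRNA genes of Caenorhabditis elegans that lie near a chromatin immunoprecipitation (ChIP-seq) peak of the protein ZK546.5 in L4 larvae. They were chosen by the position of peak summits: a tRNA gene was included when the summit of a peak in the pooled ce11 list lay within 500 bp of its annotated 5′ end. By this rule 269 of 612 nuclear tRNA genes were included, which is 44.0% (Wilson 95% interval 40.1 to 47.9%, covering the counting of genes only). The same distance held for 32.0% of all 46890 nuclear genes, and since this list chose the genes nothing is read from that difference. ChIP-seq was done on whole L4 larvae, males and females pooled, of strain OP231. These worms carry the integrated transgene wgIs231, which makes ZK546.5 with GFP and FLAG fused to its C-terminus, on an unc-119(ed3) III background. There was a single group with 2 biological replicates, fragmented by sonication, and no other strain, stage or treatment, so no comparison between conditions could be made. Chromatin of all tissues was measured together, so a site bound in few cells and a site bound weakly in many cannot be told apart.

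tRNA genes are short, and RNA polymerase III transcribes them from a promoter that lies inside the gene. A pair of conserved blocks of the tRNA itself, the A box and the B box, are bound by the factor TFIIIC, which brings TFIIIB to the DNA just upstream of the gene. TFIIIB in turn recruits the polymerase, and transcription stops at a run of T residues just past the 3′ end. In C. elegans many tRNA genes lie alone or in small clusters between genes or inside introns of protein-coding genes, and the genome carries many identical copies of the same tRNA. The labels list the experiment as ChIP-seq of a transcription factor.

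The sequences of the genes with the strongest signal show what lies under or beside these peaks. The first 3 are the tRNA genes with a reproducible peak within 500 bp. C14B9.t2 is shown because it resembles C04A11.t1, and the F42A10 pair because both genes share a single peak that ranked within the first 3000 of every list. Each is the RefSeq WBcel235 genome sequence of the gene, 5′ to 3′ on its own strand, with matches to the A box and the B box in capitals. The A box was searched as TNGC, then NNA, then NNGG without gaps, or with a single further base before the last GG. The B box was searched as GTTCNANNC.
C18A11.t2, tRNA-Arg, chrX:8036685-8036757, minus strand: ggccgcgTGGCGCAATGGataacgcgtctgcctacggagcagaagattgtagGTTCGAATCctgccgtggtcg
C04A11.t1, tRNA-Leu, chrX:13665555-13665673, plus strand: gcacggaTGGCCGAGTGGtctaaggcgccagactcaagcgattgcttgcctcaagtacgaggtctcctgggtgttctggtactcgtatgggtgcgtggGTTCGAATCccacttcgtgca
R04A9.t1, tRNA-Gln, chrX:410391-410462, plus strand: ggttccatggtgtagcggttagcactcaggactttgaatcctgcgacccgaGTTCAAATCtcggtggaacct
C14B9.t2, tRNA-Leu, chrIII:8109603-8109724, plus strand: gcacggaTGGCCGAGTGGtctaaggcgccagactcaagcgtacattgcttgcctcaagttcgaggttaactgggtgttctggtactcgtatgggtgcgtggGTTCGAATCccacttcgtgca
F42A10.t1, tRNA-Ser, chrIII:6158778-6158859, plus strand: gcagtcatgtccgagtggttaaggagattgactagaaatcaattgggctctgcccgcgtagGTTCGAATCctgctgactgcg
F42A10.t2, tRNA-Ser, chrIII:6158965-6159050, plus strand: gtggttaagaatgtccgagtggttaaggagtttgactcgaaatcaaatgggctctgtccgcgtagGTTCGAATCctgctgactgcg

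All 6 genes held a B box, and the A box as searched was found in the tRNA-Arg gene and in both tRNA-Leu genes. C04A11.t1 and C14B9.t2 are 119 and 122 bases long and share their first 40 and last 53 bases. Each of these tRNA-Leu genes is a single copy in the genome, whereas the sequence of R04A9.t1 occurs in 15 copies and that of C18A11.t2 in 10. C14B9.t2 falls outside the rule for named genes and was chosen after its values were seen.

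The arginine tRNA gene C18A11.t2 had the highest signal of the 269. Its peak, chrX:8036253-8036596, had a signal of 82.7 in the pooled list, which was rank 72 when the 30000 pooled peaks are ordered by signal. In the list of replicate 1 the summit within 100 bp had a signal of 56.6 (rank 74), and in that of replicate 2 it had 19.4 (rank 277). This summit was high in all 3 lists. It did not lie on the tRNA gene: it was 332 bp from the 5′ end and 260 bp past the 3′ end, and the peak did not overlap the gene. Nearer to the summit, at 249 bp, was the 5′ end of the non-coding RNA gene C18A11.13, and the nearest 5′ end of a protein-coding gene was that of xol-1, the switch gene of sex determination, at 4888 bp. The 101 bases around the summit, shown because they carry the strongest signal near any tRNA gene, held no A box and no B box on either strand. They held an inverted repeat whose arms of 12 bases, in capitals, are separated by 20 bases.
Summit of the C18A11.t2 peak, chrX:8036375-8036475, plus strand: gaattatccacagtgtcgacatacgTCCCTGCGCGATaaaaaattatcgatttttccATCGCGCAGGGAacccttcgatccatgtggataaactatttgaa

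An exact inverted repeat with arms of at least 12 bases was found in the same window of 0.977% of all pooled peaks, and in 0.87% of the 230 peaks that are the strongest at a tRNA gene. This repeat was looked for after the sequence was seen. The other 9 genes with the sequence of C18A11.t2 give a view of the same tRNA gene in other surroundings. Of the 10 copies 6 had a pooled summit within 500 bp, and after rank 72 the next was rank 1277 and the last rank 21909. The copy at rank 1277 was F12D9.t4, in an intron of stg-2, which encodes a stargazin-like protein. Its summit, too, lay past the gene, 305 bp from the 5′ end, with a signal of 20.1 in the pooled list, 8.0 in replicate 1 and 9.46 in replicate 2. The 30 bases after these 2 genes differ, apart from the T run that is in capitals.
After C18A11.t2: taacTTTTttcaattttcagttatttttaa
After F12D9.t4: gaaacTTTTttaatacttcaaaaacatttt

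The leucine tRNA gene C04A11.t1 had its summit inside the gene, 14 bp from the 5′ end. Its signal was 38.6 in the pooled list (rank 206), 20.02 in replicate 1 (rank 272) and 16.7 in replicate 2 (rank 501). It was thus high in every list, and no protein-coding 5′ end was nearer than 980 bp. C14B9.t2, the similar tRNA-Leu gene in an intron of C14B9.3, had its summit 3 bp upstream of the 5′ end. Its signal was 21.0 in the pooled list (rank 1072), 12.1 in replicate 1 (rank 1155) and 11.0 in replicate 2 (rank 3574).

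The glutamine tRNA gene R04A9.t1 lies in an intron of ZK1193.2, on the opposite strand. Its summit was 183 bp upstream, the peak did not overlap the gene, and the 5′ end of ZK1193.2 was 265 bp from the summit. The signal was 36.4 in the pooled list (rank 228), 8.51 in replicate 1 (rank 4114) and 26.3 in replicate 2 (rank 132). The replicates therefore placed this peak far apart in rank.

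These 3 genes were the only nuclear tRNA genes with a summit of the reproducible list within 500 bp, 0.49% of 612 (Wilson 95% interval 0.167 to 1.43%). The reproducible list holds the 304 peaks that the authors kept after thresholding on the irreproducible discovery rate (IDR), which measures how far replicates rank peaks alike. Among all nuclear genes the share was 0.838%, which lies inside that interval. It was 1.39% for protein-coding genes, 4.91% for snoRNA genes, whose RNAs guide RNA modification, and 5.43% for snRNA genes. Besides RNAs that splice pre-mRNA, the snRNA type of the annotation takes in spliced leader RNA genes such as sls-2.9.

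The next members by signal were led by the glutamate tRNA gene C28G1.t1 on chromosome X, which touches an exon of C28G1.2. It had a signal of 31.5 in the pooled list (rank 319), 7.49 in replicate 1 (rank 6325) and 16.8 in replicate 2 (rank 488), with the summit 21 bp into the gene. The glycine tRNA gene Y82E9BR.t1 on chromosome III, in an intron of lelo-2, had 30.2 (rank 351), 6.75 (rank 8594) and 11.7 (rank 2704) in the same order. In both genes the rank in replicate 1 was the worst of the 3 lists.

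The pair M02F4.t2 and M02F4.t1 on chromosome X, a tRNA-Glu and a tRNA-Gly gene read away from each other, shared a peak whose summit lay between them, 81 and 36 bp upstream. Its signal was 29.9 in the pooled list (rank 360), 14.9 in replicate 1 (rank 551) and 12.4 in replicate 2 (rank 2071). The serine tRNA genes F42A10.t1 and F42A10.t2 shared a peak with a signal of 29.0 in the pooled list (rank 378), 14.5 in replicate 1 (rank 584) and 12.9 in replicate 2 (rank 1727). Its summit lay 37 bp into F42A10.t1 and 150 bp upstream of F42A10.t2. With C18A11.t2 and C04A11.t1, these were the 6 members, on 4 peaks, that ranked within the first 3000 of all 3 lists. Those 4 peaks are 1.74% of the 230 member peaks, beside 1.19% of all pooled peaks.

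Other genes among the 20 of highest signal ranked well in one replicate only. The leucine tRNA gene C04E7.t1 had a signal of 27.0 in the pooled list (rank 459) and 19.3 in replicate 1 (rank 291), and in replicate 2 it had 5.56 (rank 23614). The tRNA-Lys gene T23F1.t1 and the tRNA-Pro gene T23F1.t2 on chromosome V shared a peak of signal 22.4 (rank 816), which had 16.2 in replicate 1 (rank 432) and 6.21 in replicate 2 (rank 19299). The lysine tRNA gene C33G3.t2 had 21.2 in the pooled list (rank 1016), 11.7 in replicate 1 (rank 1313) and 4.84 in replicate 2 (rank 29400), near the bottom of that list. These 3 peaks ranked far better in replicate 1 than in replicate 2.

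The phenylalanine tRNA gene T28B4.t1, in an intron of fbxl-4, which encodes an F-box protein, showed the opposite. It had a signal of 21.4 in the pooled list (rank 971) and 14.6 in replicate 2 (rank 960), and replicate 1 had no summit within 100 bp. The glutamate tRNA gene C44B7.t1 had 22.6 in the pooled list (rank 794) and 9.44 in replicate 2 (rank 6385), again with none in replicate 1. The glycine tRNA gene F10C1.t1 had 22.8 (rank 771) with 8.50 in replicate 1 (rank 4149), and the serine tRNA gene K07A1.t1 had 22.0 (rank 871) with 12.6 in replicate 1 (rank 989). Neither had a summit in replicate 2. The summit at K07A1.t1 was 28 bp from the 5′ end of aqp-9, an aquaporin gene, and 112 bp from that of the tRNA gene.

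The rest of the 20 were the tRNA-Asn gene F41D9.t3, in an intron of sulp-3, and the pair W09G10.t3 and W09G10.t2, tRNA-Thr and tRNA-Lys. F41D9.t3 had a signal of 24.6 in the pooled list (rank 587), 13.4 in replicate 1 (rank 790) and 9.52 in replicate 2 (rank 6205). The W09G10 pair shared a peak of 21.1 (rank 1040), with 5.49 in replicate 1 (rank 14321) and none in replicate 2.

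**Figure D1:**
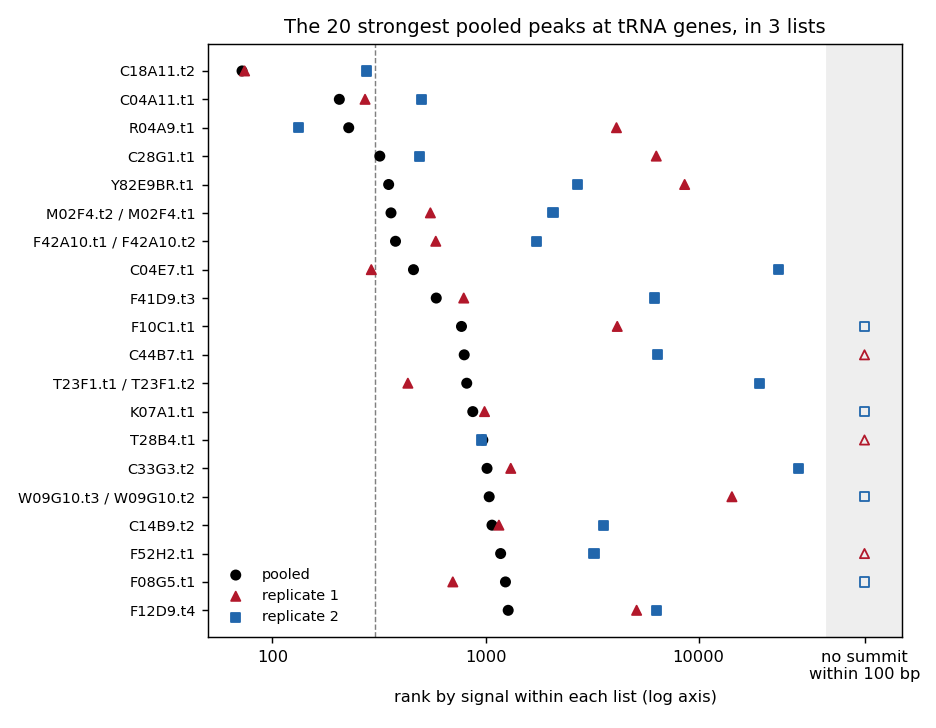
Ranks by signal, on a log axis, of the 20 strongest pooled peaks at tRNA genes (24 genes) in the pooled list (black circles), replicate 1 (red triangles) and replicate 2 (blue squares). The dashed line marks rank 304, the last reproducible peak, and open symbols in the grey field mark lists with no summit within 100 bp of the pooled one. C18A11.t2 sits at ranks 72, 74 and 277, while C33G3.t2 spans ranks 1016 to 29400.

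At rank 1000 or better stood 17 of the 269 genes, which ran from rank 72 to rank 29607. Their signal in the pooled list ran from 7.49 at the alanine tRNA gene Y38E10A.t1 (rank 29607) over a median of 11.7 (95% interval of the median 11.1 to 12.3) to 82.7. All pooled peaks had a median signal of 10.3 and ran from 7.43 to 1668. The median rank was 10581, beside 12582 for the other nuclear genes near a pooled summit, 11658 for protein-coding genes and 4817 for snoRNA genes. For tRNA genes near a summit of a single replicate list it was 10233 in replicate 1 and 15102 in replicate 2. Ranks of other genes in those lists were not worked out. Ranks 1 to 304 held 3 of the genes (1.12%, beside 2.65% of the other genes) and ranks 305 to 1000 held 14 (5.2%, beside 4.11%). Ranks 1001 to 3000 held 35 (13.0%, beside 8.78%) and ranks 3001 to 10000 held 73 (27.1%, beside 25.7%). Ranks 10001 to 20000 held 87 (32.3%, beside 31.3%) and ranks 20001 to 30000 held 57 (21.2%, beside 27.4%). The share at rank 1000 or better, 6.32%, was close to the 6.76% of other genes and below the 26.7% of snoRNA genes. Counted as distinct peaks, the strongest peaks of the 269 genes were 0.987% of ranks 1 to 304 and 1.58% of ranks 305 to 1000. They were 1.35% of ranks 1001 to 3000 and 0.957% of ranks 3001 to 10000. At ranks 10001 to 20000 they were 0.73%, and at ranks 20001 to 30000 they were 0.49%, the lowest share.

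The 269 genes were not 269 separate peaks. Their strongest summits belonged to 230 peaks, since 75 of the genes shared 36 peaks, and 33 genes had a pair of pooled summits within reach. The most on a single peak was 3: the tRNA-Ile genes B0344.t1, B0344.t2 and B0344.t3 in an intron of the hedgehog-related gene wrt-9 shared a peak of signal 11.7 (rank 10581). This peak had no summit within 100 bp in either replicate. These genes were chosen after their values were seen.

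The lists of the replicates were compared with the pooled one by the position of the summits and by rank within a list, because no source used here says how signal was scaled from list to list. Within 500 bp of a replicate 1 summit lay 273 of the 612 tRNA genes (44.6%, beside 31.7% of all nuclear genes), and within reach of a replicate 2 summit 235 (38.4%, beside 32.2%). Of the 269 genes near a pooled summit, 186 were near replicate 1 (69.1%) and 166 near replicate 2 (61.7%), and 101 were near both (37.5%). For other genes near a pooled summit the shares were 58.5% and 64.1%, so the tRNA genes lay above them in replicate 1 and below them in replicate 2. The share near both was 34.4% for those other genes, 40.3% for protein-coding genes and 61.2% for snoRNA genes. Among the 343 tRNA genes with no pooled summit in reach, 87 were near replicate 1, 69 near replicate 2 and 19 near both, and 206 of all 612 were near none of the lists. The pooled list was made from the alignments of both replicates, so the 3 lists are not independent of each other.

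Agreement at the summit itself followed the rank. With a summit within 100 bp in both replicates, 53 of the 269 genes (19.7%) had a doubly matched peak, 90 were matched in replicate 1 alone, 69 in replicate 2 alone and 57 (21.2%) in neither. Among all pooled peaks 10.7% were matched in both and 28.6% in neither. In all, 53.2% of the genes were matched in replicate 1 and 45.4% in replicate 2, whereas of all pooled peaks 36.4% and 45.6% were. At ranks 1 to 1000, 13 of 17 genes were matched in both replicates (76.5%, beside 66.9% of the list). At ranks 1001 to 10000 it was 34 of 108 (31.5%, beside 20.2%), and at ranks 10001 to 30000 it was 6 of 144 (4.17%, beside 3.62%). Across the 45 member peaks matched in both, Spearman's rho between the ranks of the replicates was 0.220, and across all 3209 such pooled peaks it was 0.284. These peaks share the 2 libraries and a control file, so rho is a description of these lists.

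The summits lay close to the tRNA genes. The median distance from the 5′ end was 123 bp, beside 231 bp for the other genes with a pooled summit within 500 bp, 229 bp for protein-coding genes, 248 bp for piRNA genes and 171 bp for snoRNA genes. Within 100 bp of the 5′ end lay 118 of the 269 summits (43.9%), beside 22.0% for other genes and 35.8% for snoRNA genes. The lists of the replicates gave a similar picture, with a median of 129 bp and 43.2% within 100 bp in replicate 1, and 146 bp and 36.2% in replicate 2. Other genes stood at 231 bp and 22.3% in replicate 1 and at 233 bp and 21.8% in replicate 2. No test was made of these distances, because the pooled list chose the genes and the replicate lists come from the same libraries.

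Upstream of the gene lay 118 summits (43.9%), inside it 56 (20.8%) and past its 3′ end 95 (35.3%). Protein-coding genes had 59.9% of their summits upstream. Per 100 bp of sequence, the summits numbered 75 inside the gene, 23.6 in the 500 bp upstream and 22.3 in the stretch past the end. The peak region overlapped the gene in 187 of the 269 (69.5%). The 100 bp from the 5′ end onward held 66 summits and the 100 bp before it 51, while each stretch of 100 bp farther than 200 bp upstream held 10 or 11. On the other side the numbers were 26 at 200 to 299 bp, 16 at 300 to 399 bp and 10 at 400 to 500 bp. The median distance was smaller in the better rank ranges. It was 81 bp for the 17 genes, on 14 peaks, at ranks 1 to 1000. It was 102 bp for 108 genes at ranks 1001 to 10000 and 152.5 bp for 144 genes at ranks 10001 to 30000. By stretch of 100 bp the order was not steady. The stretch farthest upstream, with 11 genes, had the best median rank, 6864. The stretches just before and just after the 5′ end had 8260 and 8957.5, and the others 9539.5 to 20605. The strongest member, C18A11.t2, had its summit at 332 bp.

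**Figure D2:**
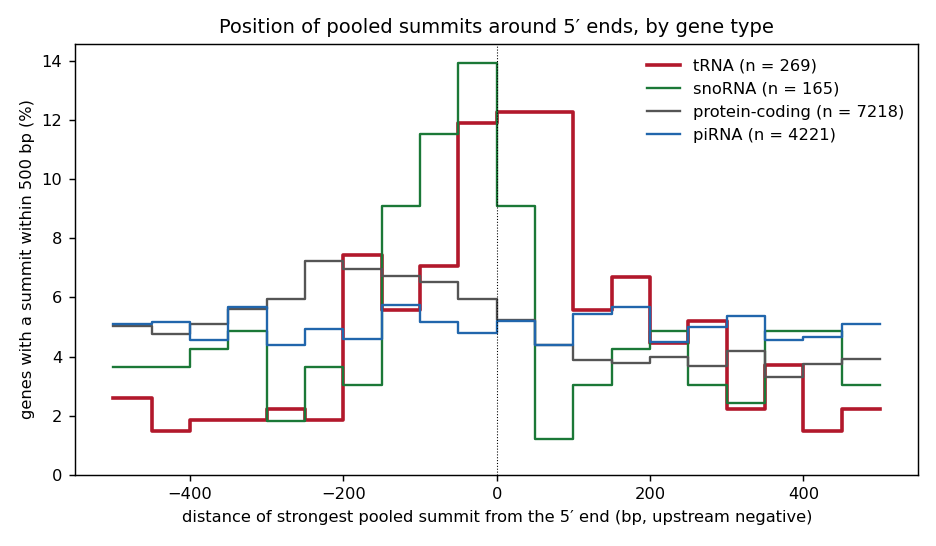
Share of genes with a pooled summit within 500 bp, in percent, by the distance of the strongest summit from the 5′ end in bp (upstream negative), for tRNA genes and other gene types in steps of 50 bp. The tRNA curve peaks around the 5′ end, with 43.9% of the 269 summits within 100 bp, beside 22.2% of the 7218 protein-coding genes. The snoRNA curve is also highest near the 5′ end, with 35.8% of 165 genes within 100 bp.

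**Figure D3:**
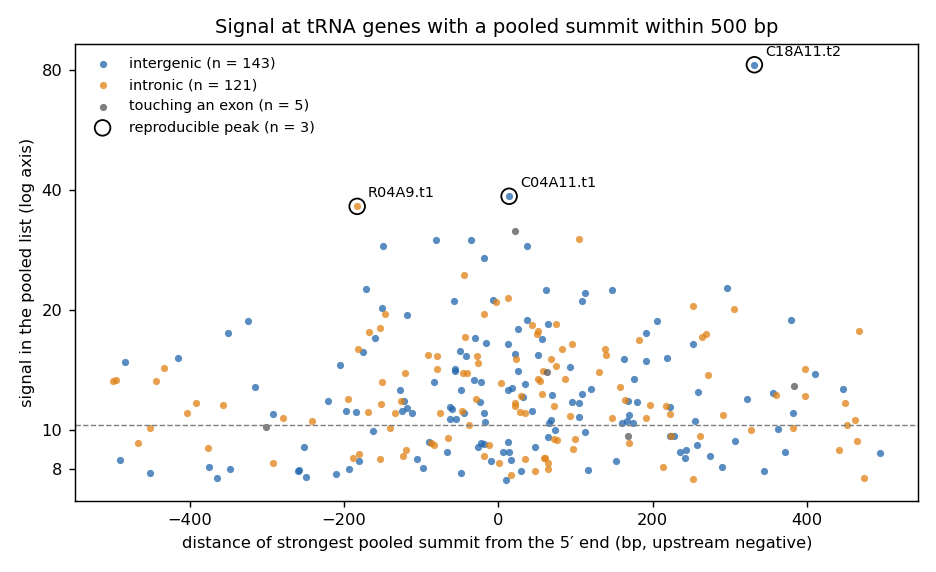
Signal in the pooled list (log axis) against the distance of the summit from the 5′ end for the 269 genes, coloured by location, with the 3 reproducible peaks circled and the median of all pooled peaks, 10.3, as a dashed line. C18A11.t2, at 82.7, stands above all others and 332 bp from its 5′ end, while C04A11.t1, at 38.6, is 14 bp from it.

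At the edge of the rule, measured here to the nearest pooled summit and not to the strongest, the members farthest away were the tRNA-Ile gene K11C4.t1 at 496 bp (signal 13.4, rank 6747), the tRNA-Ala gene B0491.t2 at 491 bp (8.41, rank 23925) and the tRNA-Ala gene Y7A9D.t2 at 484 bp (14.8, rank 4546). Just outside were the tRNA-Arg gene F33D11.t2 at 510 bp (10.3, rank 15062), the tRNA-Leu gene C17D12.t3 at 512 bp (10.1, rank 15715) and the tRNA-Tyr gene C16D9.t4 at 516 bp (25, rank 551). The last of these has a stronger peak than most members. Of the 343 tRNA genes outside, 108 had their nearest summit between 501 and 1000 bp away, and the median was 1472 bp.

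Chromosome X held 276 of the 612 nuclear tRNA genes (45.1%) and 122 of the 269 near a pooled summit (45.4%), while it held 17.1% of the pooled peaks. On X 44.2% of the tRNA genes were near a pooled summit, beside 31.4% of its other genes. The highest share was on chromosome II, with 30 of 57 (52.6%, other genes 32.7%), followed by III with 31 of 64 (48.4%, other genes 41.1%). On chromosome I it was 27 of 66 (40.9%, other genes 39.3%), on IV 29 of 71 (40.8%, other genes 29.3%) and on V 30 of 78 (38.5%, other genes 29.5%). The order was not the same in the replicates: chromosome II led in both, with 52.6% and 45.6%, and the lowest share was on chromosome I in replicate 1 (31.8%) and on IV in replicate 2 (31%). Of the 17 genes at rank 1000 or better, 9 were on X.

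By location, 121 of the 269 genes (45.0%) lay wholly in an intron of a protein-coding gene, 143 (53.2%) were intergenic with respect to protein-coding genes and 5 touched an exon. Among the 343 other tRNA genes 47.2% were intronic. The share with a pooled summit was 42.8% of 283 intronic and 44.8% of 319 intergenic tRNA genes. It was 42.8% and 45.8% in replicate 1 and 37.8% and 38.2% in replicate 2, so both kinds of location stood close together in each list. The same held on X (42.1% intronic, 45.0% intergenic) and on the autosomes (43.1% and 44.6%). The median signal was 11.7 in both, and the median rank was 10581 for intronic and 10466 for intergenic genes. At rank 1000 or better, 12 of 17 were intergenic and 4 intronic, T28B4.t1 being the one that is read in the same direction as its host.

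Among intronic tRNA genes, 69 of 160 on the strand of their host were near a pooled summit, and 52 of 122 on the opposite strand. The 121 intronic members had 101 different hosts, of which 16 held more than 1. The host with most was ajm-1, which encodes a protein of the apical junction of epithelia, with 5 members and a best rank of 5280, followed by wrt-9 with 3. Many tRNA genes are also overlapped by annotated non-coding RNA genes of other types. With genes of any type counted as hosts, 17.5% of the members were intronic and 61% touched an exon.

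**Figure D4:**
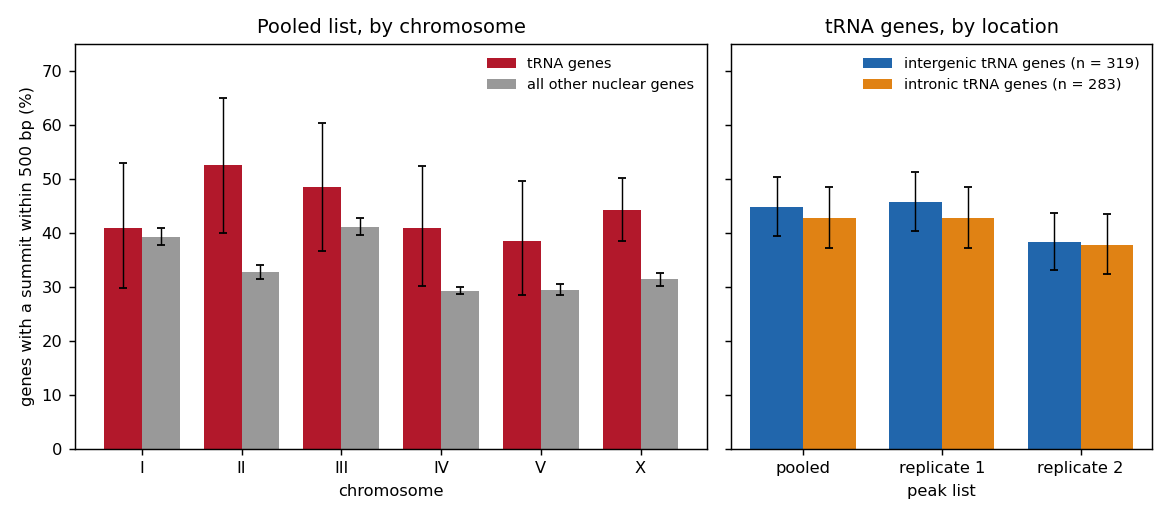
Left, share of genes with a pooled summit within 500 bp on each chromosome, for tRNA genes and other genes. Right, the same share in the pooled and replicate lists for intergenic and intronic tRNA genes. Bars start at 0 and error bars are Wilson 95% intervals that cover the counting of genes only; intergenic and intronic genes stand at 44.8% and 42.8% in the pooled list.

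Other 5′ ends lay near some of the same summits. For 62 of the 269 genes (23.0%) the 5′ end of a protein-coding gene was within 500 bp of the summit, beside 26.9% of all pooled peaks, and for 10 (3.72%) it was nearer than that of the tRNA gene. For 95 (35.3%) a 5′ end of some gene other than a tRNA was nearer. At rank 1000 or better a protein-coding 5′ end was in reach for 7 of 17 (41.2%, beside 50% of pooled peaks of those ranks). The median rank was 10231.5 for the 62 genes and 10581 for the other 207. Whether such a peak belongs to the tRNA gene or to its neighbour cannot be told from position alone.

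Every amino acid was represented. RefSeq names the amino acid for 268 of the 269 genes. The largest groups were tRNA-Gly with 26 of 55 genes near a pooled summit (47.3%), tRNA-Lys with 22 of 46 (47.8%), tRNA-Glu with 19 of 41 (46.3%) and tRNA-Ser with 19 of 39 (48.7%). Of the groups with more than 10 genes, tRNA-Thr stood highest with 18 of 34 (52.9%), and the lowest were tRNA-Met with 5 of 20 (25%) and tRNA-Trp with 3 of 12 (25%). In replicate 1 tRNA-Met had 7 of 20 and tRNA-Trp 6 of 12, and in replicate 2 they had 6 and 1. tRNA-Trp was thus not low in replicate 1. Nor did tRNA-Thr lead in either replicate, with 12 of 34 in replicate 1 and 16 of 34 in replicate 2, beside 8 of 13 tRNA-Cys genes in each. The single tRNA-Sec gene, K11H12.t1, which serves the insertion of selenocysteine, was near a summit of signal 10.6 (rank 14077) at 463 bp. That gene was chosen after its values were seen.

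At rank 3000 or better tRNA-Ser had 6 genes and tRNA-Gly 5, and tRNA-Arg, tRNA-Asn, tRNA-Glu, tRNA-Leu, tRNA-Lys and tRNA-Pro had 4 each. None of the 13 tRNA-Val genes near a pooled summit ranked better than 5774, and the 7 tRNA-His genes began at rank 4325. The tRNA genes that carry an intron of their own, of the tyrosine, leucine and isoleucine types, were near a pooled summit in 12 of 29 cases (41.4%), beside 44.1% of those without one. The median rank of these 12 was 5732.5, beside 10581 for the 257 members without an intron.

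**Figure D5:**
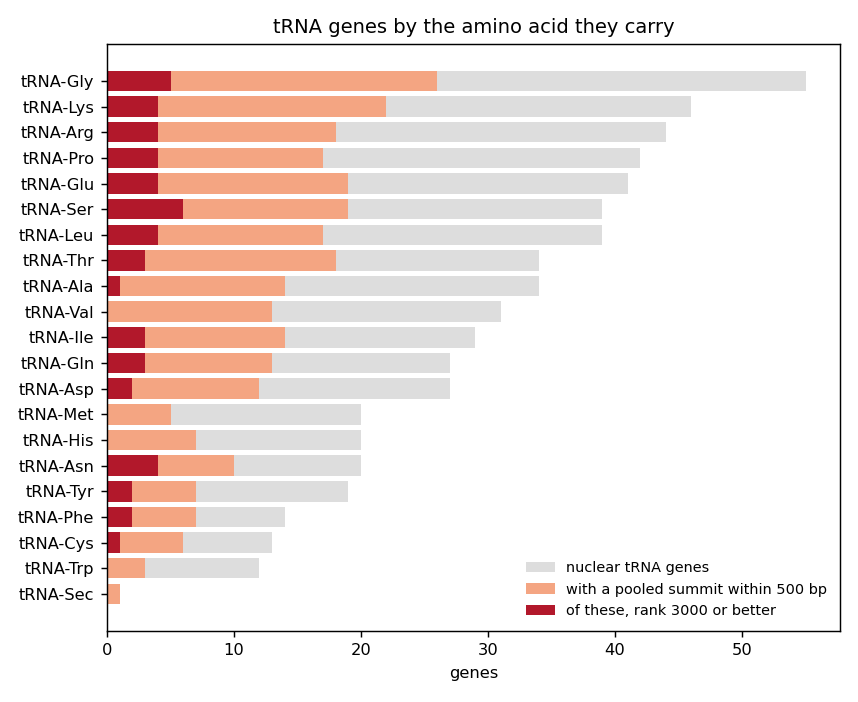
Number of nuclear tRNA genes by the amino acid they carry (grey), those with a pooled summit within 500 bp (light red) and those of them at rank 3000 or better (dark red). Glycine leads with 26 of 55 genes, and valine has 13 of 31 with none at rank 3000 or better.

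In sequence the genes near a pooled summit were like the other nuclear tRNA genes. Their length ran from 70 to 122 bases with a median of 72, and the median was 72 in the others as well. A B box was found in 263 of the 269 (97.8%) and in 94.5% of the others, beginning at base 52 in the median. The strict A box was found in 80 (29.7%, others 34.4%), and with the single further base allowed in 142 (52.8%, others 55.4%), beginning at base 8. A match only says that the letters are present. In windows of 72 bases around the summits of the 29744 pooled peaks that were not within 500 bp of a tRNA gene, on both strands, 2.27% held a B box, 1.25% a strict A box and 0.0403% both on the same strand. A run TTTT began within 30 bp of the 3′ end in 268 of the 269 genes (99.6%, others 98.3%), and in 45.5% of windows of that length after other nuclear genes. W09G10.t3 was the member without one.

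Genes near a pooled summit more often had a sequence that is repeated in the genome. An identical copy elsewhere in the genome existed for 218 of the 269 (81.0%), and for 73.2% of the other tRNA genes. Single-copy tRNA genes were near a pooled summit in 51 of 143 cases (35.7%), those with 2 to 5 copies in 37 of 82 (45.1%), those with 6 to 14 in 72 of 171 (42.1%) and those with 15 or more in 109 of 216 (50.5%). In replicate 1 the lowest and highest groups stood at 40.6% and 46.3%, and in replicate 2 at 28.7% and 44.0%. No test of this difference was made. Reads that lie wholly inside identical genes cannot be placed by their sequence alone. Of the 269 genes, 220 (81.8%, others 74.1%) held no 31-base word that is unique in the genome. The surroundings were mostly unique: within 500 bp of the 5′ end the median share of unique words was 94.2%, beside 93.7% for the others. The peaks of the 269 genes held a median of 86.0% unique 31-base words, beside 100% for all pooled peaks. Their median GC content was 39.8%, beside 34.6%. No source used here says how reads with several matches were treated, and their part in the signal was not tested. At C18A11.t2 and R04A9.t1 the whole peak was unique.

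Within the larger families of identical genes the ranks ran widely, although copies that lie on the same peak, such as R11.t1 and R11.t2 at rank 2299, share its rank. That pair was chosen after its values were seen. Of 57 families of identical tRNA genes, 48 had genes both with and without a pooled summit in reach, 3 had it at every copy and 6 at none. The largest was a family of 29 tRNA-Gly genes, of which 18 were near a pooled summit (62.1%), from rank 351 at Y82E9BR.t1 to rank 26644. In the family of 24 tRNA-Pro genes of T23F1.t2 it was 11 (45.8%), from rank 816 to rank 23766.

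Genes that make, process or charge tRNAs were looked up in the same lists, by their annotated 5′ ends. None of them was near a reproducible summit, beside 0.838% of all nuclear genes and 1.39% of protein-coding genes. At such low shares nothing is read from the absence in lists this small. Of 10 genes looked up as RNA polymerase III and its factors, 6 were near a pooled summit (60.0%) with a median rank of 3114.5. Among the 6 is maf-1 (rank 8257), which was looked up beside mafr-1 and is not itself a polymerase III factor. Both values therefore count a gene outside this group. The strongest was rpac-19, a subunit shared by polymerases I and III, with a signal of 23.6 (rank 670), rank 259 in replicate 1 and no summit within 100 bp in replicate 2. The gene rpc-1, for the largest subunit of the enzyme, had 17.8 (rank 2137), with ranks 6514 and 1737 in the replicates. Of 12 genes for processing and export 10 were near a pooled summit (83.3%), with a median rank of 10361. They were led by rpr-1, the RNA component of RNase P, at 24.8 (rank 563), 9 bp from its 5′ end and with no summit in either replicate. The gene hoe-1, for the RNase Z that trims tRNA 3′ ends, had 18.7 (rank 1742), with ranks 11528 and 1722 in the replicates. Of 20 genes for cytosolic aminoacyl-tRNA synthetases, which charge tRNAs, 9 were near a pooled summit (45.0%), with a median rank of 15071, and tars-1 led with 13.8 (rank 6057). All 3 lists are read beside the 32.0% of all nuclear genes and the 36.1% of protein-coding genes near a pooled summit, and their small size does not allow more than these counts.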

How the data were processed

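The data were ChIP-seq peak lists of 2 biological replicates of a single group. The deposited text files state that a replicate list comes from the alignments of that replicate plus 1 control file, and the pooled one from both replicates. The reproducible list holds the peaks the authors kept by IDR, and its 304 peaks are the first 304 of the pooled list. The pooled and replicate lists hold exactly 30000 peaks each, so their length carries no measurement, and their weaker entries may be background, per the authors' own naming of them as input for IDR. Nearly all peaks of a list have 1 width (344, 330 and 316 bp in the pooled, replicate 1 and replicate 2 lists). The name and version of the aligner and of the peak caller were not given in the sources used here. The unit is the signal value of each peak, deposited by the authors, which was used to rank peaks within a list and never compared between lists. A further column of the deposited lists, −log10 of a q-value by format, was not used, and neither were the ce10 lists. Read numbers are not part of the lists, so depth was unknown.

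Genes came from Ensembl release 115 (WBcel235, the same build as ce11), amino acids and sequences from RefSeq WBcel235. Positions are 1-based. The distance ran from the annotated 5′ end to the strongest summit within 500 bp, upstream negative. A replicate summit matched within 100 bp, the strongest where there were several. Intronic means inside a protein-coding gene and off its exons. Words of 31 bases were counted over the whole genome. Python 3.11.15, numpy 2.4.6, pandas 2.3.3 and scipy 1.17.1 were used, and the matching of genes to summits was tested on simulated data. There was no comparison between groups, so no test was made and no p-values are given. The named genes were those with a reproducible summit, the 20 of highest pooled signal, 3 on either side of the 500 bp limit, those within rank 3000 in all lists, and hosts and neighbours of these. The related lists named vars-2, rpc-9, ela-1 and trm-61 too, which matched no gene symbol. The genes, lists and descriptions were chosen with earlier results of these data known. Alternatives were other distances, fewer peaks, the nearest summit, distinct peaks, other definitions of intronic, other motif letters, and each replicate's list alone.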

Additional observations from a re-analysis of the deposited data

Results flagged for a closer look

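The 22 mitochondrial tRNA genes are outside the genes described above, and all 22 lay within 500 bp of a summit in the list of replicate 1. That list held 25 mitochondrial peaks, at ranks 20 to 5135, and the pooled, reproducible and replicate 2 lists held 0. The pooled list was made from the alignments of both replicates, those of replicate 1 included. A signal in 1 library only therefore cannot be read from this, and why the other lists held none was not tested. How many other mitochondrial genes lay as near to the peaks of replicate 1 was not counted, so 22 of 22 is not read as particular to tRNA genes.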

How the results depend on the processing

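Of 39 alternative values for 14 results, 32 stayed within the stated limits (a count within 1.5 times, other values within their interval) and 7 moved. The limit for counts is wide: 195 tRNA genes within 200 bp and 377 within 1000 bp, beside 269 within 500 bp, fell inside it. With only the 10000 strongest pooled peaks 125 tRNA genes were in reach, and with the 2000 strongest 34. Matches in both replicates moved from 19.7% to 12.6% within 50 bp and to 29.7% within 200 bp. The intronic share moved from 45.0% to 17.5% when genes of any type were hosts, because non-coding genes are annotated over tRNA genes, and the A box from 29.7% to 52.8% with a further base. That last setting, and distances in single replicates, were chosen after seeing the data. With 1 replicate left out, the list of the other alone gave 235 to 273 genes in reach and 2 to 4 at its first 304 peaks, and median ranks of 10233 to 15102, the latter without replicate 1. It gave 44.3 to 45.5% intronic, 46.0 to 47.3% on X and distances of 129 to 146 bp. The cause of these shifts was not tested. No paired analysis was possible because there is a single group with no comparison between groups. Depth is unknown, so weak peaks cannot be told from background.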
